A study of Mus musculus with 6 samples.

Results

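The genes described are those of the cytosolic ribosomal proteins, the proteins that with the ribosomal RNAs make up the ribosome of the cytoplasm. They were taken by name from the deposited table: protein-coding genes whose symbol is Rpl or Rps with a number, together with Rpsa, Rplp0, Rplp1 and Rplp2, without the S6 kinases. This rule found 83 of the 54532 genes listed, 51 of the large subunit (Rpl) and 32 of the small subunit (Rps). RNA was sequenced from N9 cells, an immortalized line of mouse microglia grown in serum-containing medium, that had either been left untreated (control, 3 libraries) or been given lipopolysaccharide (LPS) of gram-negative bacteria at 1 µg/ml for 6 h (LPS, 3 libraries). The labels name no genetic change in either group, and do not say whether the 3 replicates came from separate cultures, so that p-values measure the spread between these libraries, which may be technical. N9 is a single established line and stands in for microglia only as such.

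The small subunit reads the mRNA and the large subunit joins the amino acids and passes the new chain through a tunnel to the cytoplasm. Each ribosome holds most of these proteins in single copy, and mammalian cells make them in near-equal amounts from genes scattered over the chromosomes. Their mRNAs belong to the class with a 5′ terminal oligopyrimidine tract (TOP), a cytosine at the cap followed by a run of pyrimidines, through which mTORC1 and LARP1 control how much of the mRNA is translated. RNA-seq counts, as used here, measure the amount of mRNA and not its translation. Mammalian genomes also carry many processed pseudogenes of ribosomal protein genes, DNA copies of the spliced mRNA, which bear on the counting described further below.

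The start site of these genes is shown first, since the TOP tract is the feature that defines their mRNAs. For 63 of the 83 genes the RefSeq promoter sequences (build GRCm38.p6) held an entry. Each sequence below runs 5′ to 3′ on the gene's strand, from 40 bases before the annotated start to 20 bases from it on, and capitals mark a run of C followed by at least 4 more C or T that begins within 5 bases of the annotated start.
Rpl38 (chr11:114668540-114668599, plus strand): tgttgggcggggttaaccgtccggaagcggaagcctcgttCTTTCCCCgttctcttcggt
Rps18 (chr17:33955646-33955705, minus strand): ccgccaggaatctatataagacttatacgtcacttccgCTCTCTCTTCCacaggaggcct
Rps21 (chr2:180257339-180257398, plus strand): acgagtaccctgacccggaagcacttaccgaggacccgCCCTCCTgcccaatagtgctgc
Rplp2 (chr7:141447611-141447670, plus strand): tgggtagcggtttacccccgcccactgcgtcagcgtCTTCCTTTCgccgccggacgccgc
Rps6 (chr4:86857348-86857407, minus strand): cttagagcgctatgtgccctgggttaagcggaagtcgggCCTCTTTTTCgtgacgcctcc
Rps27 (chr3:90213629-90213688, minus strand): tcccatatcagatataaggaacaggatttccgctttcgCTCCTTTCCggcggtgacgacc
Rps28 (chr17:33824543-33824602, minus strand): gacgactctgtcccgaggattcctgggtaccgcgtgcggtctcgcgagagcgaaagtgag
Rplp0 (chr5:115559427-115559486, plus strand): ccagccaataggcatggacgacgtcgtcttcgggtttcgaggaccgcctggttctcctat
The last pair had no such run at the annotated start, which says only that these letters are not in that window of the annotation. A few genes have several entries, and a gene was counted where any of them held the letters. A run was found for 29 of the 63 genes (46%), against 23.8% of the 9082 tested genes with an entry and 21.2% of all 27025 genes with one. On either strand of the 300 bases around the start, CCGGAAG was found in 41.3% of the ribosomal protein genes against 21.4% of tested genes, AAGATGGC in 9.52% against 5.7%, and GGGCGG in 61.9% against 69.2%. These matches describe the sequence and are not sites shown to be bound.

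Total counts per library lay between 16363767 and 17956772. Of the 15 microglia and macrophage markers checked, 13 passed the filter on low counts, and their summed level was between 3382 and 3493 CPM (counts scaled to a common library size by the TMM factors described below) in the 6 libraries. Among them 3 were called higher and 4 lower with LPS (23.1% and 30.8%, against 18.7% and 15.7% of all tested genes). Scaled by library totals instead, 2 were called higher and 6 lower. P2ry12 and Aif1 held at most 9 counts in any library. The 12 hepatocyte markers, which a microglial line should lack, summed to 16.04 and 24.9 CPM in control replicates 2 and 3 and to between 0.234 and 0.548 CPM in the other 4 libraries, with Alb at 155 and 292 counts in that pair. The 5 fibroblast markers summed to 11.2, 7.15 and 7.73 CPM in control replicates 1 and 3 and LPS replicate 1, and to between 0.454 and 0.793 CPM in the other 3 libraries. Col1a1 had 70, 49 and 40 counts in those 3 libraries and at most 3 in the others. The part of these transcripts in any result was not tested beyond leaving the libraries out. Leaving out control replicates 2 and 3 leaves a single control library, whose spread is assumed to be that of the LPS group. The median log2 fold change of the tested ribosomal protein genes was then 0.14, against 0.13 with all libraries. Over all tested genes it was 0.00, and the value of Rpl15 went from 0.02 to -0.15. That single control is one of the libraries with collagen transcripts. Without control replicates 1 and 3 and LPS replicate 1, which again leaves 1 control library, the median log2 fold change was 0.16, and 0.00 over all tested genes. Counts of calls from these fits are listed only with the other settings in the last section. No conclusion is drawn from them, since 1 control library has no spread of its own.

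The ribosomal protein genes together took 4.57% ± 0.068 (SD, n = 3) of all counts in control libraries and 4.66% ± 0.0534 (SD, n = 3) in LPS libraries. In control replicates 1, 2 and 3 the share was 4.62%, 4.49% and 4.60%, and with LPS it was 4.67%, 4.61% and 4.71%. The groups overlapped, since LPS replicate 2 lay just under control replicate 1. The difference of 0.095 percentage points was given as a description without a test. Counts are shares of a library, so that a change in the total RNA of a cell was not measured.

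The comparison across genes used edgeR's TMM scaling, which sets the libraries level on the bulk of the genes, and on that scale the same counts stood apart. Summed over the 83 genes they came to 44717, 43472 and 44403 CPM in control libraries and to 48418, 47810 and 48651 CPM in LPS libraries, with no overlap. The 2 scales differ because the TMM factors were between 1.034 and 1.036 for control and between 0.9646 and 0.9699 for LPS. Genes that rose more than 1.5 on the log2 scale took between 0.414% and 0.426% of the counts of control libraries and between 2.54% and 2.64% of those of LPS libraries. What part these genes had in the difference between the factors was not tested. The plot of shares and summed levels sets both scales side by side.

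**Figure D1:**
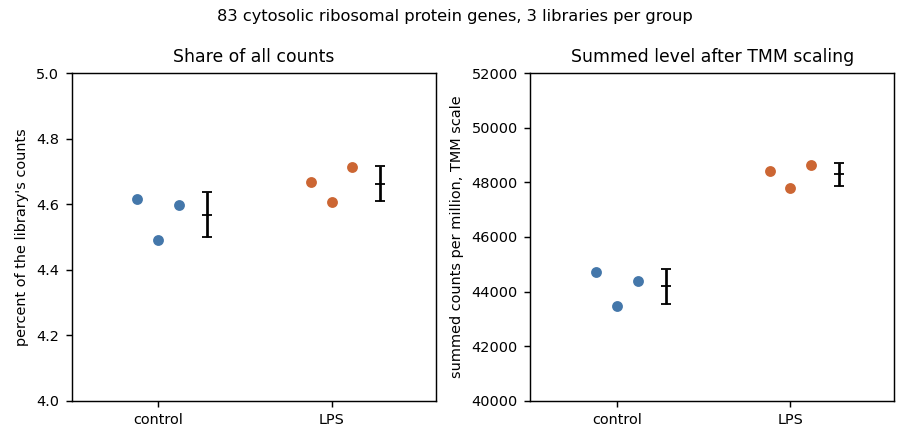
Share of each library's counts in the 83 ribosomal protein genes (left, percent, axis from 4 to 5) and their summed level after TMM scaling (right, CPM, axis not from 0). Points are libraries, and the bar beside them is the mean ± SD of 3; the shares of the groups overlap, whereas the TMM-scaled sums run from 43472 to 44717 in control and from 47810 to 48651 with LPS.

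Of the 83 genes, 79 passed the filter on low counts and were tested with edgeR's quasi-likelihood test, with Benjamini-Hochberg adjustment over all 12296 tested genes. LPS raised 46 of them (58.2%) at an adjusted p under 0.05, where 18.7% of all tested genes rose, and lowered 0, where 15.7% fell. No gene was lower at an unadjusted p under 0.05 either (0 by edgeR), and DESeq2 called 0 lower. No member passed the fold threshold of 1.5 on the log2 scale that defines a differentially expressed gene (DEG) in the study, against 2.65% of all tested genes. The changes were small: the median log2 fold change was 0.13, a 1.10-fold difference, beside 0.00 over all tested genes, and the range was -0.20 to 0.61. The log2 fold change was above 0 for 76 of the 79 genes. In 50 of them every LPS library lay above every control library on the TMM scale (63.3%, against 23.7% of all tested genes), in 29 the groups overlapped, and in 0 did LPS lie below control throughout. By subunit, 24 of 47 tested Rpl genes rose with a median of 0.15, and 22 of 32 Rps genes with a median of 0.12.

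These counts depend on the scale. With library totals in place of TMM factors the median of all genes moved by -0.10 to -0.09, and 17 of the 46 were still called higher while Rpl3 was called lower (log2 fold change -0.12, adjusted p = 0.00698 by edgeR). Of all tested genes 12.4% were called higher and 27.2% lower with library totals. The share of higher among all calls went from 54.3% to 31.3% with that scaling, and 53 of the 79 genes were then above 0. With 1 library left out in turn, 30 of the 46 genes were called in each of the 6 fits.

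**Figure D2:**
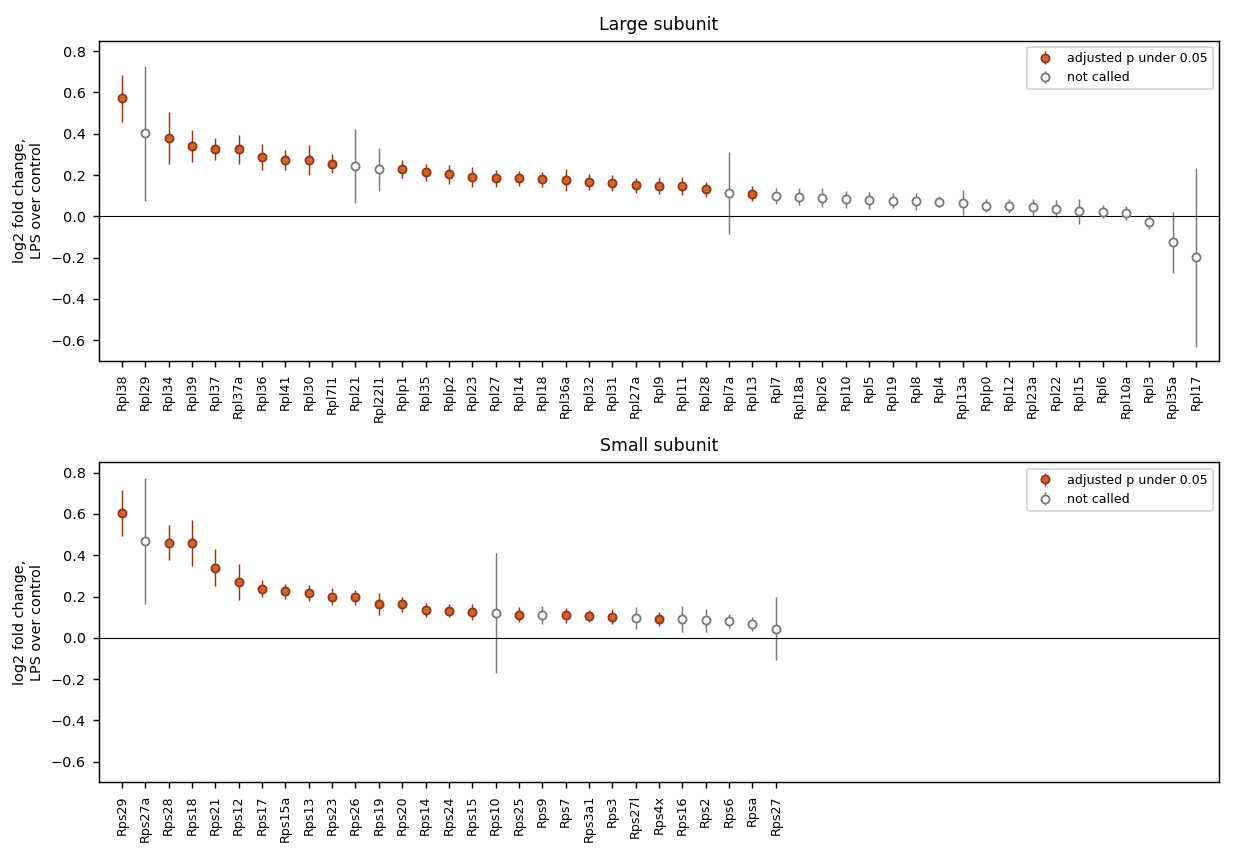
Log2 fold change of LPS over control for the tested ribosomal protein genes, ordered within the large subunit (top, 47 genes) and the small subunit (bottom, 29 of 32 genes). Bars are the standard error of edgeR's estimate and filled points have an adjusted p under 0.05; filled points are all above 0, and the longest bars belong to Rpl17, Rpl29, Rps27a and Rps10.

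Most of the largest rises among the called genes were in genes of short proteins. Rps29 (ENSMUSG00000034892, chr12:69157722-69159186, minus strand), a zinc-binding protein of the small subunit's head with 56 residues, stood at 134, 169 and 195 CPM in control and at 221, 245 and 293 CPM with LPS. All LPS libraries were above all control libraries, and the log2 fold change was 0.61 ± 0.112 (SE, n = 3 per group; adjusted p = 0.000651 by edgeR). Rpl38 (chr11:114668524-114672331, plus strand), a large-subunit protein of 70 residues known from mouse embryos for its part in the translation of Hox mRNAs, had 127, 177 and 189 CPM in control and 216, 242 and 275 CPM with LPS. Its log2 fold change was 0.57 ± 0.114 (SE) with an adjusted p of 0.00116 by edgeR. Rps28 (chr17:33819027-33824562, minus strand), which lies where mRNA leaves the small subunit, had 119, 144 and 156 CPM against 175, 193 and 209 CPM, a log2 fold change of 0.46 ± 0.083 (SE). In these 3 genes control replicate 1 was the lowest of the 6 libraries and LPS replicate 3 the highest.

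Rps18, at the interface of the subunits, rose by 0.46 ± 0.111 on the log2 scale, from 19.0, 15.1 and 20.2 CPM to 23.1, 24.1 and 27.5 CPM. Rpl34 had 15.2, 12.9 and 13.2 CPM in control and 16.9, 15.2 and 21.6 CPM with LPS, a log2 fold change of 0.38 ± 0.127. Its lowest LPS library was above its highest control library by less than 0.1 CPM, and it was called in 3 of the 6 fits with a library left out and not by DESeq2 (adjusted p = 0.0591). Without LPS replicate 3 its log2 fold change was 0.22 (adjusted p = 0.178 by edgeR). It was also not called with library totals (0.28, adjusted p = 0.0977 by edgeR). The same held with a trend over mRNA length removed, as described below (0.28, adjusted p = 0.0755 by edgeR). Both genes have few counts for a ribosomal protein gene, and the copies that share part of their sequence are described below.

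Rpl39, a protein of 51 residues that lines the exit tunnel, had 118, 137 and 158 CPM in control and 171, 173 and 178 CPM with LPS (log2 fold change 0.34 ± 0.077). Rps21 had 241, 316 and 315 CPM against 350, 344 and 409 CPM, a log2 fold change of 0.34 ± 0.089. It was not called by DESeq2 (adjusted p = 0.0922) or without LPS replicate 3 (0.26, adjusted p = 0.0563 by edgeR), and its log2 fold change was 0.21 without control replicate 1. With a trend over mRNA length removed, as described below, it was not called either (0.21, adjusted p = 0.0764 by edgeR). Rpl37 and Rpl37a, zinc-binding proteins of the large subunit, rose by 0.33 ± 0.051 and 0.32 ± 0.071 on the log2 scale. For Rpl37 the control libraries lay close together, at 254, 243 and 253 CPM, and the LPS libraries at 293, 310 and 338 CPM, which gave the lowest adjusted p of the 83 genes, 0.000155 by edgeR. Rpl36 closed the 10, at 313, 300.5 and 334 CPM in control and 347, 388 and 423 CPM with LPS. With edgeR's robust dispersion, 5 of these 10 genes were not called, Rpl39, Rpl37a, Rps29, Rpl38 and Rps21, at adjusted p-values between 0.0515 and 0.168.

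**Figure D3:**
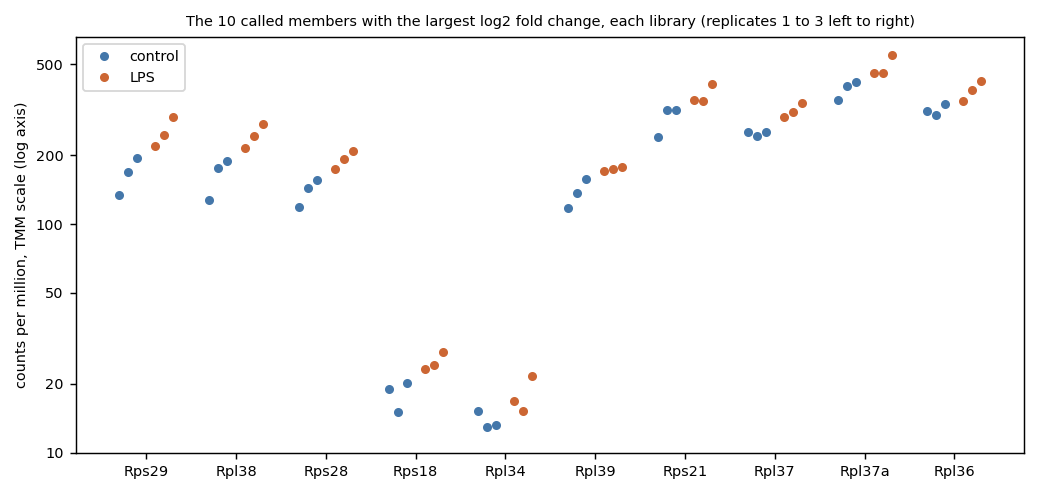
TMM-scaled CPM (log axis) of the 10 called genes with the largest log2 fold change, with replicates 1 to 3 of control and of LPS from left to right. In each gene all 3 LPS libraries lie above the 3 control libraries, and Rps18 and Rpl34 sit under 30 CPM where the others exceed 100 CPM.

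The size of the change followed the length of the coding region. Across the 79 tested genes Spearman's rho between log2 fold change and coding length was -0.61, a description over genes that share the same 6 libraries. Among the 10 tested genes with a coding length of up to 300 bases, 8 rose and the median log2 fold change was 0.33; in the classes of over 300 to 400, over 400 to 600 and over 600 bases 14 of 17, 17 of 29 and 7 of 23 rose, with medians of 0.20, 0.15 and 0.08. Among the other tested genes of these 3 classes 14.4%, 17.0% and 19.7% rose, with medians of 0.03, 0.01 and -0.01. The shortest of all, Rpl41 with 25 residues, rose from 708, 771 and 711 CPM to 832, 854 and 959 CPM (log2 fold change 0.27 ± 0.051, adjusted p = 0.000668 by edgeR). The 222 other tested genes with a coding length of up to 300 bases had a median of 0.09, and 25.2% of them rose.

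The short ribosomal protein genes also differed between libraries of one group. Their median deviation from the own group's mean was -0.22 in control replicate 1, 0.05 in control replicate 2 and 0.15 in control replicate 3, and -0.08, -0.02 and 0.12 in LPS replicates 1, 2 and 3, on the log2 scale. The other tested genes of that length deviated by between -0.03 and 0.03 in every library. Leaving out 1 library in turn moved the median log2 fold change of the short class between 0.24 (without control replicate 1) and 0.38 (without control replicate 3). With a trend over mRNA length removed from each library 36 genes were called higher, 32 of them among the 46. The 4 others were Rplp0, Rpl4, Rpl5 and Rpl7, with adjusted p-values between 0.012 and 0.0413 by edgeR. Over all tested genes the number called higher went from 2294 to 2498 with that trend removed. Its removal lowered the class medians to 0.25, 0.14, 0.10 and 0.07, in order of length, and rho to -0.43. What part fragment size or RNA quality had in this was not tested.

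**Figure D4:**
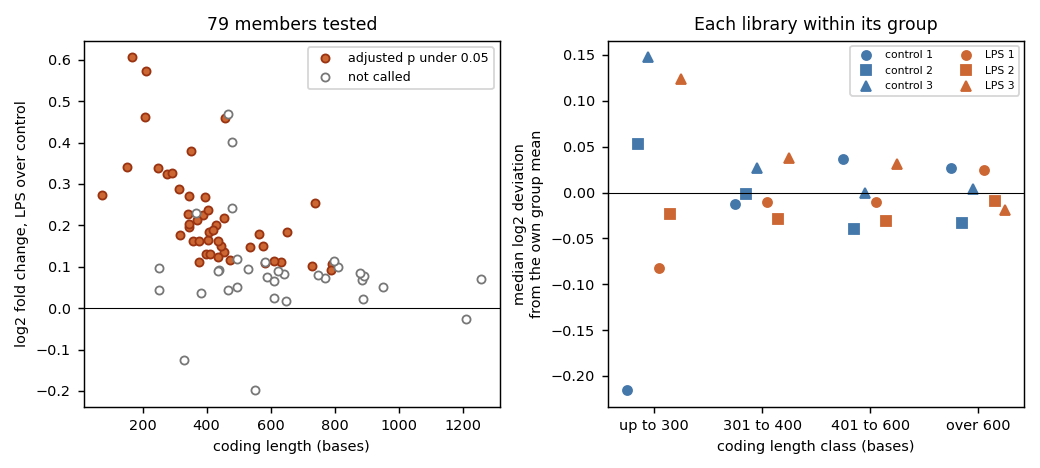
Left, log2 fold change of LPS over control against coding length (bases) for the 79 tested genes, filled where the adjusted p is under 0.05. Right, median log2 deviation of each library from its group's mean by coding length class; in the class of up to 300 bases control replicate 1 lies at -0.22 and control replicate 3 at 0.15, while in the other classes all 6 libraries stay within 0.04 of 0.

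By place in the ribosome, the acidic stalk that recruits the elongation factors had 2 of its 3 proteins higher (66.7%, against 58.2% of the 79 tested genes and 18.7% of all tested genes), and 1 with library totals. Rplp1 rose from 858, 805 and 858 CPM to 953, 945 and 1055 CPM (log2 fold change 0.23 ± 0.044, adjusted p = 0.000881 by edgeR), and Rplp2 from 478, 432 and 443 CPM to 507, 510 and 541 CPM (0.20 ± 0.045). Rplp0, to which both bind and which is often used as a reference gene in PCR, had 2755, 2568 and 2646 CPM in control and 2823, 2776 and 2660 CPM with LPS. Its groups overlapped and it was not called (log2 fold change 0.05 ± 0.031, adjusted p = 0.226 by edgeR). With 1 library left out in turn its log2 fold change lay between 0.02 and 0.08.

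Rpl11 and Rpl5 carry the 5S RNA into the large subunit and, when free of it, bind the p53 ligase Mdm2. Rpl11 rose by 0.15 ± 0.044 on the log2 scale, from 575, 514 and 536 CPM to 583, 597 and 619 CPM, and was called in 2 of the 6 fits with a library left out. Rpl5 had 881, 813 and 822 CPM against 915, 888 and 851 CPM and was not called (0.08 ± 0.039, adjusted p = 0.152 by edgeR).

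Of the 9 genes for proteins around the peptide exit tunnel, 3 rose (33.3%, against 58.2% of the 79 tested genes and 18.7% of all tested genes) and the median log2 fold change was 0.08, or -0.02 with library totals. Rpl4, which reaches into the tunnel wall and has the longest coding region of the 83 genes, was at 1758, 1748 and 1768 CPM in control and at 1878, 1814 and 1846 CPM with LPS. Those groups did not overlap, and the adjusted p was 0.0538 by edgeR for a log2 fold change of 0.07 ± 0.027. Of the 6 genes for proteins at the entry and exit of mRNA on the small subunit 5 rose (2 with library totals), with a median of 0.12, among them Rps28, Rps26 and Rps3.

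The 10 called genes with the smallest change had log2 fold changes between 0.09 and 0.13. They included Rps4x, Rps3, Rps3a1, Rps7, Rpl13 and Rpl28. Rps4x, encoded on the X chromosome, had 916, 893 and 901 CPM against 1002, 938 and 951 CPM and was called in 0 of the 6 fits with a library left out. Rps3 (1153, 1049 and 1087 CPM against 1202, 1161 and 1169 CPM) and Rps7 were each called in 1 of them, and the log2 fold change of Rps3, 0.10, was 0.06 without control replicate 2. With library totals the log2 fold changes of these 10 genes lay between -0.01 and 0.03 and none was called.

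Rps6, the substrate of the S6 kinases, had 1070, 1043 and 1061 CPM in control and 1152, 1126 and 1080 CPM with LPS. The groups did not overlap and the adjusted p was 0.0714 by edgeR (log2 fold change 0.08 ± 0.033). Rpsa, a protein of the small subunit also known as a laminin receptor, was at 1736, 1780 and 1825 CPM against 1969, 1832 and 1795 CPM, with overlap and an adjusted p of 0.161 by edgeR. Rpl13a, known for leaving the ribosome of interferon-treated monocytes to silence inflammatory mRNAs, had 52.1, 54.4 and 59.5 CPM against 57.0, 58.8 and 58.0 CPM and was not called (log2 fold change 0.07 ± 0.060). Its log2 fold change lay between 0.01 and 0.12 with 1 library left out in turn. Its counts are low for its class, and 55.2% of the 100-base windows of its mRNA are also in an overlapping gene model, Gm45713, which held 0 counts.

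Some ribosomal proteins have a second, similar gene. Rpl7l1, the relative of Rpl7, was at 206, 188 and 197 CPM in control and at 238, 237 and 229 CPM with LPS and rose by 0.25 ± 0.046 on the log2 scale (adjusted p = 0.000553 by edgeR). Rpl7 itself had 1011, 999 and 1023 CPM against 1145, 1073 and 1030 CPM and was not called (0.10 ± 0.038, adjusted p = 0.0585 by edgeR). With a replicate block, a pairing that the labels do not state, Rpl7 was called (0.10, adjusted p = 0.0418 by edgeR). Rpl7l1 counts were 20.4%, 18.8% and 19.3% of those of Rpl7 in control and 20.8%, 22.1% and 22.3% with LPS. The log2 ratio was higher in every LPS library, by 0.16, and the two-sided exact permutation p was 0.1, the smallest that 3 against 3 allow (0.4 after Benjamini-Hochberg adjustment over the 4 pairs compared).

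Rpl22l1, the relative of Rpl22, had 42.1, 35.1 and 31.7 CPM in control and 40.9, 38.0 and 48.5 CPM with LPS. It was not called (log2 fold change 0.23 ± 0.104), and neither was Rpl22 (0.04 ± 0.042). With 1 library left out in turn the log2 fold change of Rpl22l1 lay between 0.12 and 0.34, and Rpl22l1 was called in 1 of the 6 fits. Rps27l, a p53 target in other cells and the relative of Rps27, had 152, 158 and 169 CPM against 181, 170 and 162 CPM and was not called (0.10 ± 0.053). For the pairs Rpl22l1 with Rpl22, Rps27l with Rps27 and Rpl3l with Rpl3 the exact permutation p of the log2 ratio was 0.3, 0.9 and 0.7. The Rps27 counts in that ratio leave out its copies, described below, so the 0.9 does not show that the ratio stayed level. With copies added Rps27 had 2920, 3810 and 4369 counts in control and 4110, 4628 and 5220 with LPS. Rps27l had 2608, 2793 and 3144 in control and 2856, 2792 and 2662 with LPS. The ratio with copies added was not tested. Rpl3, the only one of these parents with a log2 fold change below 0, had 796, 769 and 789 CPM against 786, 766 and 761 CPM.

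The 4 genes that did not pass the filter were Rpl24, Rpl3l, Rpl39l and Rpl10l. Rpl10l and Rpl39l are known as testis genes, and Rpl10l had 0 counts in all libraries and Rpl39l a single count in LPS replicate 1. Rpl3l, known from muscle, had 5, 1 and 7 counts in control and 2, 4 and 9 with LPS. Rpl24, a constituent of every ribosome, had 3, 5 and 5 counts in control and 3, 3 and 8 with LPS. Of the windows of its mRNA, 80.1% are also in other listed genes, among them the overlapping readthrough model Gm28037, which held 0 counts.

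Shared sequence bears on most of the 83 genes. For 74 of them at least 1 window of 100 bases of the mRNA was found in another gene of the annotation, and in 30 more than 50% of the windows were. The table lists 388 ribosomal protein pseudogenes, which held between 53645 and 63720 counts per library, 6.84% to 7.83% as many as the 83 genes. Among the 71 of these that were tested 6 rose (8.45%, against 18.7% of all tested genes) and 1 fell (1.41%, against 15.7%). The sources used here do not give the treatment of reads that match several genes, so the split of counts between a gene and its copies is uncertain.

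Rpl17, a protein at the mouth of the exit tunnel, is given as the example and was chosen after its values were seen. It had 4817, 6273 and 1990 counts in control and 1885, 6840 and 1827 with LPS. Its processed pseudogene Rpl17-ps10 on chromosome 7, which shares 45% of its windows, had 4839, 2401 and 7323 counts in control and 7115, 2295 and 6695 with LPS, high where Rpl17 was low. The sum of the pair lay between 8522 and 9656 in all 6 libraries, with a coefficient of variation of 4.6% against 59.1% for Rpl17 alone. Rpl17 was not called (log2 fold change -0.20 ± 0.433), but without LPS replicate 2 it was called lower (-1.10, adjusted p = 0.0309 by edgeR). With all its copies added the log2 fold change was 0.09 (adjusted p = 0.0842 by edgeR).

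Rps27, a zinc-binding protein of the small subunit, shared 98.4% of its windows with Rps27rt, a gene on chromosome 9 that the table lists as protein-coding. Rps27 had 113, 174 and 201 CPM in control and 199, 143 and 163 CPM with LPS, and it was not called (log2 fold change 0.04 ± 0.154, adjusted p = 0.854 by edgeR). Rps27rt, which the naming rule leaves out, had 56.9, 41.5 and 33.9 CPM in control and 61.2, 139 and 155 CPM with LPS, a log2 fold change of 1.43 ± 0.254 (adjusted p = 0.000452 by edgeR). Rps27 took 66.6%, 80.8% and 85.6% of the counts of the pair in control and 76.5%, 50.7% and 51.2% with LPS. Added with its copies, Rps27 had 2920, 3810 and 4369 counts in control and 4110, 4628 and 5220 with LPS, and the log2 fold change was 0.47 (adjusted p = 0.00072 by edgeR).

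**Figure D5:**
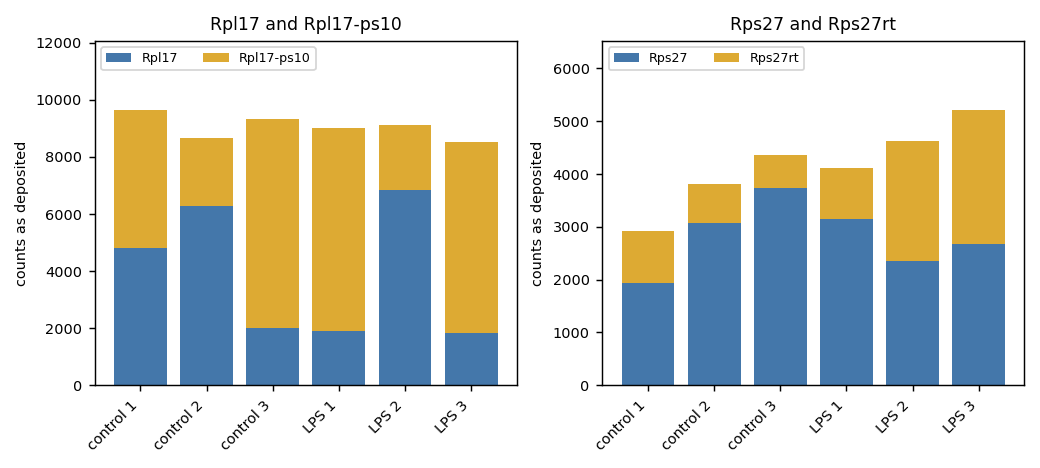
Deposited counts per library of Rpl17 with its pseudogene Rpl17-ps10 (left) and of Rps27 with Rps27rt (right), stacked from 0. The share of the pair held by Rpl17 runs from 20.9% to 74.9% with a near-constant sum, and Rps27rt holds close to as many counts as Rps27 in LPS replicates 2 and 3.

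Other genes with few counts had copies with many. Rps18 had 267 to 452 counts per library beside 1661 to 2795 for Gm11361, a gene on chromosome 13 with 41% of its windows, and the log2 fold change of Rps18 was 0.34 with all copies added (adjusted p = 0.00151 by edgeR). Rpl34 stood beside Rpl34-ps1, a pseudogene with 6243 to 7872 counts, and with its copies added its log2 fold change was 0.23 (adjusted p = 0.00125 by edgeR). Rps10 had 24 to 49 counts beside 2613 to 2978 for Rps10-ps2, and Rpl29 22 to 47 counts beside 1261 to 1595 for Gm13841. Neither was called alone or with copies added. Over all 83 genes, adding the copies left 45 of the 46 called higher and the median at 0.13.

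Levels between genes were compared as TMM-scaled CPM per kilobase of the gene length in the table. That length exceeds the mRNA length unevenly, at 499 bases against 499 for Rplp1 and 3526 against 491 for Rpl35a. The order of the genes therefore depends on the length used. Rplp1 and Rplp0 were the highest, at 1685 ± 61.7 and 1601 ± 56.8 (SD, n = 3) CPM per kb in control and at 1973 ± 122.6 and 1659 ± 50.7 with LPS. In control the libraries of both genes overlapped. Rps3a1 (1055 ± 21.6 in control and 1135 ± 18.9 with LPS) and Rpl8 (997 ± 71.7 and 1049 ± 17.7) came next. The other genes among the 10 with the most counts per kilobase over all 6 libraries were Rpl19, Rpl4, Rps15, Rpl36, Rps14 and Rpl41, between 625 and 879 CPM per kb in control, where Rps6 (667) and Rpl32 (626) also lay. The median of the 79 tested genes was 247 CPM per kb in control and 279 with LPS, and 6 genes were under 10 in control: Rps18, Rpl35a, Rpl34, Rpl29, Rpl21 and Rps10. These low levels leave out the copies of the 6 genes. With copies added they held between 1038 (Rpl35a) and 7929 (Rpl34) counts in control libraries. Rpl35a and Rpl21 share windows with 12 and 40 other genes. The levels of all 6 thus depend on the uncertain split of counts between a gene and its copies. The order of the genes was nearly the same in both groups, with a Spearman's rho across genes of 0.99.

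The change was also set beside the run of pyrimidines at the start, as a description. The 29 tested genes with a run had a median log2 fold change of 0.15, with 16 called, and the 30 with an entry but no run had 0.11, with 20 called. For comparison, 58.2% of the 79 tested ribosomal protein genes and 18.7% of all tested genes were called higher. The difference between genes with and without a run was not tested. Rpl38, with a run, and Rps28, without, were both among the 3 largest rises.

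Of 5 ribosomal protein genes that the naming rule misses, 2 rose, Rps27rt and Fau (40%, against 18.7% of all tested genes), and the median log2 fold change was 0.07. With library totals 1 rose and the median was -0.03. Fau, which encodes a small-subunit protein fused to a ubiquitin-like domain, rose from 608, 573 and 588 CPM to 667, 640 and 668 CPM (log2 fold change 0.16 ± 0.037). Rack1, a scaffold of the small subunit (0.07 ± 0.029), and Rpl36al (0.00 ± 0.334), which had about 2 CPM, were not called. Rps27a, a ubiquitin fusion, belongs to the 83 genes and had 183, 395 and 336 CPM in control and 196, 461 and 608 CPM with LPS. Its libraries ranged widely in both groups and it was not called (0.47 ± 0.304, adjusted p = 0.266 by edgeR). The log2 fold change was 0.11 without LPS replicate 3 and 0.81 without LPS replicate 1, where it was called. A replicate block, a pairing that the labels do not state, also called Rps27a (0.40, adjusted p = 0.0039 by edgeR).

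Genes that build or use the ribosome were counted on lists of their own, to be read beside the 18.7% of all tested genes that rose and the 15.7% that fell, or 12.4% and 27.2% with library totals. Of 82 ribosome assembly factors 32 rose (39.0%) and 0 fell by edgeR (0 also at an unadjusted p under 0.05 and by DESeq2), with a median log2 fold change of 0.13. With library totals 14 rose and 3 fell, and the median was 0.03. Riok3, a kinase of late small-subunit maturation, rose by 0.62 ± 0.046, from 128, 134 and 133 CPM to 200, 197 and 211 CPM. Rrs1, which helps to bring the 5S particle into the large subunit, rose by 0.45 ± 0.045 and Rrp9, of the nucleolar particle that cuts pre-ribosomal RNA, by 0.37 ± 0.051.

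Of 18 genes for RNA polymerase I and rDNA transcription, which make the ribosomal RNA, 4 rose (22.2%) and 1 fell (5.56%), and with library totals 2 rose and 2 fell. Myc, the transcription factor that drives ribosome genes in growing cells, rose by 2.95 ± 0.138 on the log2 scale, from 2.98, 4.31 and 2.96 CPM to 27.9, 27.1 and 24.2 CPM (adjusted p = 2.96e-10 by edgeR). Polr1b, the second largest subunit of the polymerase, rose by 0.35 ± 0.050, and Polr1a by 0.24 ± 0.071 with overlapping groups.

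Of 41 initiation factors 14 rose (34.1%) and 0 fell by edgeR (1 at an unadjusted p under 0.05, and 0 by DESeq2), with a median of 0.07. With library totals 3 rose and 4 fell and the median was -0.03. Eif6, which keeps the large subunit from joining the small one, rose by 0.38 ± 0.053, from 238, 207 and 210 CPM to 287, 286 and 281 CPM, and the cap-binding protein Eif4e and the exchange factor subunit Eif2b2 by 0.25 ± 0.044 and 0.25 ± 0.058. Of 12 elongation and termination factors 6 rose (50%), with a median of 0.09, against 1 higher and 1 lower and a median of -0.01 with library totals. Among the 6 were the termination factors Gspt1 (0.24 ± 0.042) and Etf1 (0.13 ± 0.034). Eef1e1 (0.15 ± 0.048) is on that list by its name and belongs to the complex of tRNA synthetases.

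On the mTORC1 and S6 kinase list 5 of 27 tested genes rose (18.5%) and 6 fell (22.2%), with a median of -0.05. These shares lie near those of all tested genes, and with library totals 3 rose and 12 fell. The largest changes there were falls. Rps6ka5, a kinase that resembles the S6 kinases but acts on histones and transcription factors, fell by 1.12 ± 0.135 on the log2 scale. Castor2 fell by 0.98 ± 0.060 and the mTOR inhibitor Deptor by 0.93 ± 0.135. Of 12 tested non-coding host genes of small nucleolar RNAs, whose transcripts also begin with a TOP tract, 4 rose and 0 fell by edgeR (0 also at an unadjusted p under 0.05 and by DESeq2), with Zfas1 (0.50 ± 0.166), Snhg6 (0.46 ± 0.154) and Snhg8 (0.38 ± 0.139) as the largest. These 4 are 33.3% of the list, and with library totals 0 of the 12 were called in either direction.

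Of 17 genes of ribosome stress and quality control 6 rose (35.3%) and 4 fell (23.5%), and with library totals 3 rose and 4 fell. Eif2ak2, the kinase PKR that stops initiation when it meets double-stranded RNA, rose by 1.62 ± 0.054, from 61.5, 64.2 and 57.7 CPM to 182, 199 and 183 CPM. Mdm2, the ligase bound by free Rpl5 and Rpl11, rose by 0.91 ± 0.042 and its substrate Trp53 by 0.32 ± 0.055. The 77 tested genes for proteins of the mitochondrial ribosome, which translates the mRNAs of the mitochondrial genome, had a median log2 fold change of 0.01, and 7 rose (9.09%) and 6 fell (7.79%), with 2 called lower by DESeq2. With library totals 3 rose and 20 fell and the median was -0.09. The difference from the cytosolic set was not tested. The largest among these were Mrpl52, which rose by 0.75 ± 0.064, Mrpl39 by 0.34 ± 0.048, and Mrps27, which fell by 0.25 ± 0.069.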

How the data were processed

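The authors deposited a table of 54532 genes with unnormalized read counts in 6 libraries, sequenced by a service company. Their processing notes name featureCounts 1.5.0-p3 and the build mm10, and the study's methods name DESeq2 for the authors' own comparison. The aligner, the use of strand and the treatment of reads that match several genes are not given in the sources used here. The authors' table of their own comparison (fold changes and p-values) and its 18 columns of values per sample were not used.

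Samples were grouped by their titles. The counts were tested with edgeR 4.0.16 under R 4.3.3 (quasi-likelihood test, TMM, filterByExpr by group, prior count 0.125, no replicate term), with Benjamini-Hochberg adjustment over 12296 genes. The standard error is the log2 fold change divided by the square root of F. CPM use the TMM-scaled totals, and 3 counts are worth 0.161 to 0.19 CPM. Intervals and floors would cover counting error only, since reads are not independent molecules. No 2 libraries of a group were alike within counting noise, with a chi-square statistic per gene of 3.55 to 7.71. On simulated counts for the same design edgeR recovered 36 of 50 genes changed by 0.5, 45 of 50 changed by 1 and 50 of 50 changed by 2 on the log2 scale, with 4 false calls among 12322 genes. That simulation gave every gene the same dispersion and had as many rises as falls, unlike these libraries. No change under 0.5 was simulated, so it gives no recovery for changes near the ribosomal protein median of 0.13. Alternatives were DESeq2 1.42.0, other scalings, filters and dispersions, a replicate block, length trends, protein-coding genes alone, and each library left out. Adding copies, the mRNA length trend and leaving out control replicates 2 and 3, or control replicates 1 and 3 with LPS replicate 1, were chosen after seeing the data. Permutation tests used scipy 1.17.1, and figures matplotlib 3.10.9.

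Coordinates of genes are those of the deposited table, and 81 of the 83 genes have the same position in GENCODE M21 on GRCm38, which gave mRNAs and coding lengths. Sequences are from RefSeq on GRCm38.p6.

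Named genes are the 10 called members with the largest and the 10 with the lowest log2 fold change, the 10 with the most counts per kilobase, the paralog pairs, Rplp0, Rplp1, Rplp2, Rpsa, Rps27a, Rpl5, Rpl11, Rpl13a, Rps6, the genes not tested, and the 3 called genes with the largest change on each list. Rpl17, Rps10, Rpl29, Rpl15, Rps26, Rpl32, Rpl35a, Rpl21, Rack1 and Rpl36al were named after their values were seen. The genes and lists were chosen with earlier results of these data known. Some genes that the rule names are not reported here by name.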

Additional observations from a re-analysis of the deposited data

How the results depend on the processing

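The number of ribosomal protein genes called higher (46) stayed within 1.5 times under DESeq2 (41), RLE size factors (43), TMM factors without these genes (44), no filter (46), a mean of at least 10 counts (46), robust dispersion (44), the length trend (48), protein-coding genes alone (49), copies added (46) and the mRNA length trend (36), and between 33 and 49 with each library left out. It was 17 with library totals, 22 without control replicates 2 and 3, and 13 without control replicates 1 and 3 and LPS replicate 1 (879 higher and 458 lower over all genes). Apart from those fits, the number called lower (0) was 1 with library totals (Rpl3), and with no filter and without LPS replicate 2 (Rpl17). Over all genes, 1520 were called higher and 3342 lower with library totals, against 2294 and 1927, and 1151 lower without control replicates 2 and 3; with each library left out the calls were 1833 to 2152 higher and 1546 to 1929 lower. The difference in share was 0.0562 to 0.123 percentage points with each library left out. The log2 ratios moved between 0.101 and 0.311 for Rpl22l1 with Rpl22, -0.106 and 0.231 for Rps27l with Rps27, -0.257 and 0.880 for Rpl3l with Rpl3, and 0.132 and 0.191 for Rpl7l1 with Rpl7.

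With library totals the log2 fold changes of Rpl10 (-0.016), Rpl13a (-0.032), Rpl19 (-0.022), Rpl22 (-0.061), Rpl4 (-0.028), Rpl5 (-0.021), Rpl8 (-0.025), Rplp0 (-0.047), Rps27 (-0.054), Rps27l (-0.00098), Rps4x (-0.0054), Rps6 (-0.017) and Rpsa (-0.031) turned below 0, among 23 of the 79 tested genes that did so, since that scaling moves each gene by -0.099 to -0.097. Rps27 did so with the length trend (-0.00034) and the mRNA length trend (-0.096), without control replicate 1 (-0.17) and without LPS replicate 1 (-0.094), in a range of -0.17 to 0.217 with each library left out, and without control replicates 1 and 3 and LPS replicate 1 (-0.20), Rpl22 with the mRNA length trend (-0.066), and Rpl8 (-0.037) and Rplp0 (-0.00022) without control replicates 2 and 3. Rpl15 also turned below 0 without control replicates 2 and 3 (-0.15). Outside the fits with 1 control library, none of these reversed values was called. For the settings other than library totals the cause was not tested.

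Over all tested genes the replicate numbers did not pair the libraries: same-numbered libraries correlated at 0.136, 0.0588 and -0.00415, and control replicate 2 correlated best with LPS replicate 3 (0.0912). Over the 79 ribosomal protein genes alone same-numbered libraries correlated at 0.225, 0.494 and 0.487, and each library correlated best with its own number, a hint from the data and not from the design. A replicate block raised the count of members called higher from 46 to 50, all 46 among them, with Rps27a (0.40, adjusted p = 0.0039 by edgeR) and Rpl7 (0.10, adjusted p = 0.0418 by edgeR) among those added, and in the paired log2 ratios gave the same means. With 3 libraries per group, changes of 0.1 on the log2 scale lie near the limit of what could be called. The library totals of 16363767 to 17956772 counts limit only the genes with few counts, such as Rpl24.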
